A study of Mus musculus with 2 samples.

Results

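The bone morphogenetic protein (BMP) ligand Bmp4, its receptors Bmpr1a and Bmpr2, the inhibitor of DNA binding genes Id1, Id2, Id3 and Id4, the secreted BMP antagonist Grem1, the follistatin gene Fst and the myostatin gene Mstn were examined in C2C12 myoblasts with and without an edit in Gne. The 10 genes were chosen by symbol, with earlier results of these data known, so they are not an unselected set. All 10 had a value in both libraries among 21829 genes. C2C12 is an immortalized mouse myoblast line, and both libraries came from cells grown as myoblasts in medium with fetal bovine serum. The WT library was made from the unedited line. The KO library was made from a line in which CRISPR–Cas9 had placed an indel in exon 2 of Gne, the gene of the enzyme that starts sialic acid synthesis. According to the methods, KO cells were grown from isolated single cells, so the KO line is a clone. There was 1 library per line, so no difference has a replicate check and no test between the lines was possible. Levels are given as FPKM, a fragment count divided by transcript length and by sequencing depth, and can be compared between genes because they are per length.

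Gne itself was at 6.67 FPKM in WT and 7.34 FPKM in KO, so its RNA level does not tell the edited library from the unedited one, and the libraries are called by their labels. Among 10 myoblast markers, 8 passed a filter that asked for 1 FPKM or more on average over the libraries. Of these, Myf5 rose more than 2-fold and Myod1, Des, Cdh15 and Chrna1 fell more than 2-fold. Over all genes past the filter, 2.84% rose and 3.43% fell by as much. Vcam1 was higher in KO, at 32.1 FPKM in WT and 51.3 FPKM in KO. Itga7 was lower, at 47.4 FPKM and 28.4 FPKM, and Ncam1 was at 14.7 FPKM and 13.0 FPKM. The summed level of the list was 293 FPKM in WT and 118 FPKM in KO. Most of that drop came from Myod1 and from Des, which was at 97.6 FPKM in WT and 3.84 FPKM in KO. Myod1, the master regulator of the myogenic program, was at 59.97 FPKM in WT and listed at 0 in KO. Pax7, the satellite cell factor, was listed at 0 in both. In bulk RNA, fewer cells of a type and less RNA per cell cannot be told apart, and the part of these markers in the values below was not tested. Fragment numbers behind the values were not used here. Steps between the lowest values were read from 92 genes in WT and 107 in KO with a single annotated transcript. If the values are FPKM, these steps put the depth near 27100000 fragments in WT and 23100000 in KO. Fragment numbers per gene below are estimates from these steps, and intervals made from them cover counting error only.

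BMP ligands bind a complex of type I and type II receptors, which phosphorylates Smad1, Smad5 and Smad9. These Smads enter the nucleus with Smad4 and switch on a small set of direct targets, of which the Id genes are the best known. Id proteins have a helix-loop-helix but no DNA-binding region, and they hold E proteins such as those of Tcf3, Tcf4 and Tcf12 away from Myod1 and other myogenic factors. In C2C12 cells, added BMP is known to block myogenic differentiation and to turn the cells toward bone. Myostatin, a related ligand that limits muscle mass, acts through activin receptors and Smad2 and Smad3, and follistatin binds myostatin and activins outside the cell.

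Across the 10 genes, Id1, Id2 and Id3 were lower in KO while the receptors and the main antagonist were not. Of the 8 genes past the filter, 5 had a lower and 3 a higher value in KO. Among all genes past the filter, 5192 were lower and 5348 higher, and 8 genes are too few to be set against that split. Id3 was the only 1 of the 8 to fall by more than 2-fold, on a scale of log2((KO + 1)/(WT + 1)), and 0 rose by as much. Over all 10542 genes past the filter, 3.43% fell and 2.84% rose by more than 2-fold. The count of 1 in 8 is too small to be set against that share. The same shares stand beside the 2-fold counts of the gene lists below, which are likewise small. The median log2 fold change was -0.35 over the 8 genes and 0.0061 over all genes past the filter. Id4 and Mstn did not pass the filter.

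**Figure D1:**
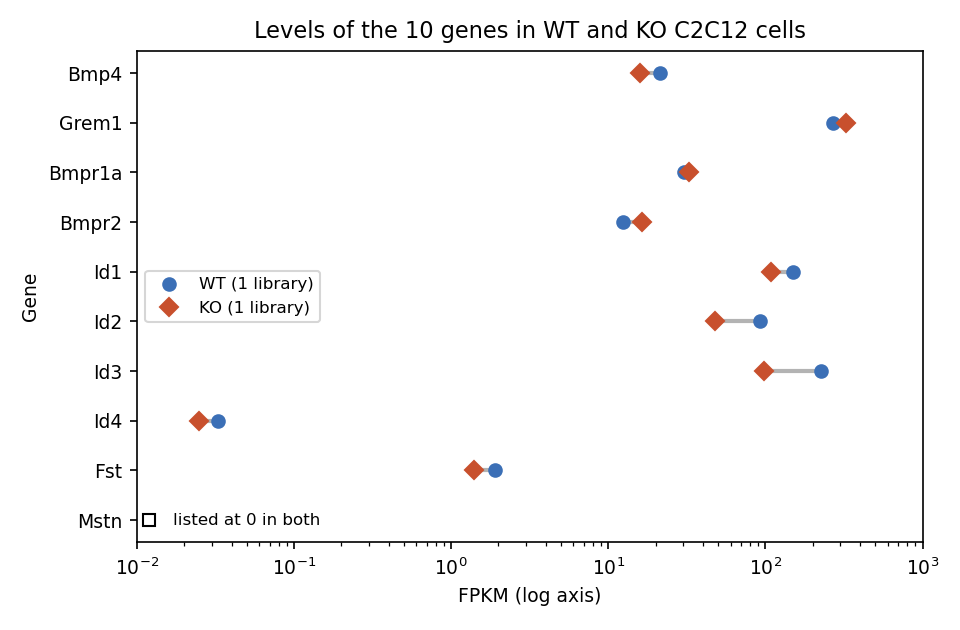
FPKM of each gene (log axis) in the WT library (circles) and the KO library (diamonds), 1 library each, with a line joining the 2 values. Id1, Id2 and Id3 sit to the left in KO, Grem1 is the most abundant gene in both libraries, and Mstn, drawn as an open square, is listed at 0 in both.

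Bmp4 was the single BMP ligand with an appreciable level. Its value was 21.4 FPKM in WT and 15.8 FPKM in KO, a log2 fold change of -0.42. KO thus held 0.738 times the WT level, and 11.5% of all genes past the filter were as low or lower in KO relative to WT. The estimated fragments, 1622 in WT and 1019 in KO, give a 95% counting interval of the log2 ratio from -0.55 to -0.32. Bmp4 lies at chr14:46620250-46636745 on the minus strand of GRCm39. The 36 genes past the filter within 5 Mb of it had a median log2 fold change of -0.074, against which Bmp4 remained at -0.34.

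Of 13 BMP and related ligand genes listed, Bmp4 alone passed the filter. Bmp2, Bmp3, Bmp7, Bmp10, Gdf2 and Gdf6 were listed at 0 in both libraries. Bmp5 was at 0.0090 FPKM in WT and 0.14 FPKM in KO, about 1 and 12 fragments, with a counting interval of the log2 ratio from 1.06 to 9.23. The remaining ligands were at no more than about 0.1 FPKM in either library.

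Both receptor genes were somewhat higher in KO. Bmpr1a, the type I receptor that binds Bmp4, was at 30.5 FPKM in WT and 32.8 FPKM in KO, a log2 fold change of 0.10. Bmpr2, the type II receptor that activates it, was at 12.5 FPKM in WT and 16.3 FPKM in KO, a log2 fold change of 0.37. Both values lie well inside the 2-fold limit, and 15.7% of genes past the filter were as high as Bmpr2 or higher. Bmpr1a lies at chr14:34132687-34225379 on the minus strand and Bmpr2 at chr1:59802544-59918173 on the plus strand of GRCm39. The medians of their neighbouring genes were -0.17 and 0.086, each below the value of the gene itself.

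Over the 10 genes listed as BMP receptors and co-receptors, 7 passed the filter, with 0 rising and 0 falling more than 2-fold and a median of 0.10. Acvr1, another type I receptor, was at 20.1 FPKM in WT and 22.4 FPKM in KO. The co-receptor gene Rgma was at 3.03 FPKM in WT and 6.29 FPKM in KO, a log2 fold change of 0.85. Bmpr1b, a second type I receptor gene, stayed under the filter but was unequal between the libraries. It was at 0.66 FPKM in WT and 0.022 FPKM in KO, about 99 and 3 fragments, with a counting interval of the log2 ratio from -7.11 to -3.22.

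Among the Smads and Smurfs of the BMP branch, only Smad1 passed the 2-fold limit with the pseudocount of 1. The value of Smad1, the receptor-activated Smad of BMP signaling, fell from 26.7 FPKM in WT to 9.54 FPKM in KO, a log2 fold change of -1.39. The median of the 8 genes on this list was 0.068. Smad1 lies on chromosome 8, and the 40 genes past the filter within 5 Mb of it had a median log2 fold change of -1.26. Measured against these neighbours, Smad1 was at -0.13, so most of its difference was shared with the genes around it.

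Smad5, which acts in parallel with Smad1, was at 22.1 FPKM in WT and 26.6 FPKM in KO. The ratio of Smad1 to Smad5 was 1.21 in WT and 0.36 in KO, so their order was exchanged. Smad9, the third Smad of this branch, was at 0.73 FPKM in WT and 1.60 FPKM in KO, a ratio of 2.20 without the pseudocount and a log2 fold change of 0.59 with it. Together the 3 genes summed to 49.5 FPKM in WT and 37.7 FPKM in KO. The shared partner Smad4 was near-equal, at 34.5 FPKM and 35.1 FPKM. The inhibitory Smads, Smad6 and Smad7, differed in opposite directions, with log2 fold changes of 0.30 and -0.20. The neighbours of Smad6 had a median of 0.36. After neighbour medians were subtracted, Smad6 was at -0.067 and Smad7 at -0.21, so the opposite directions were not kept.

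**Figure D2:**
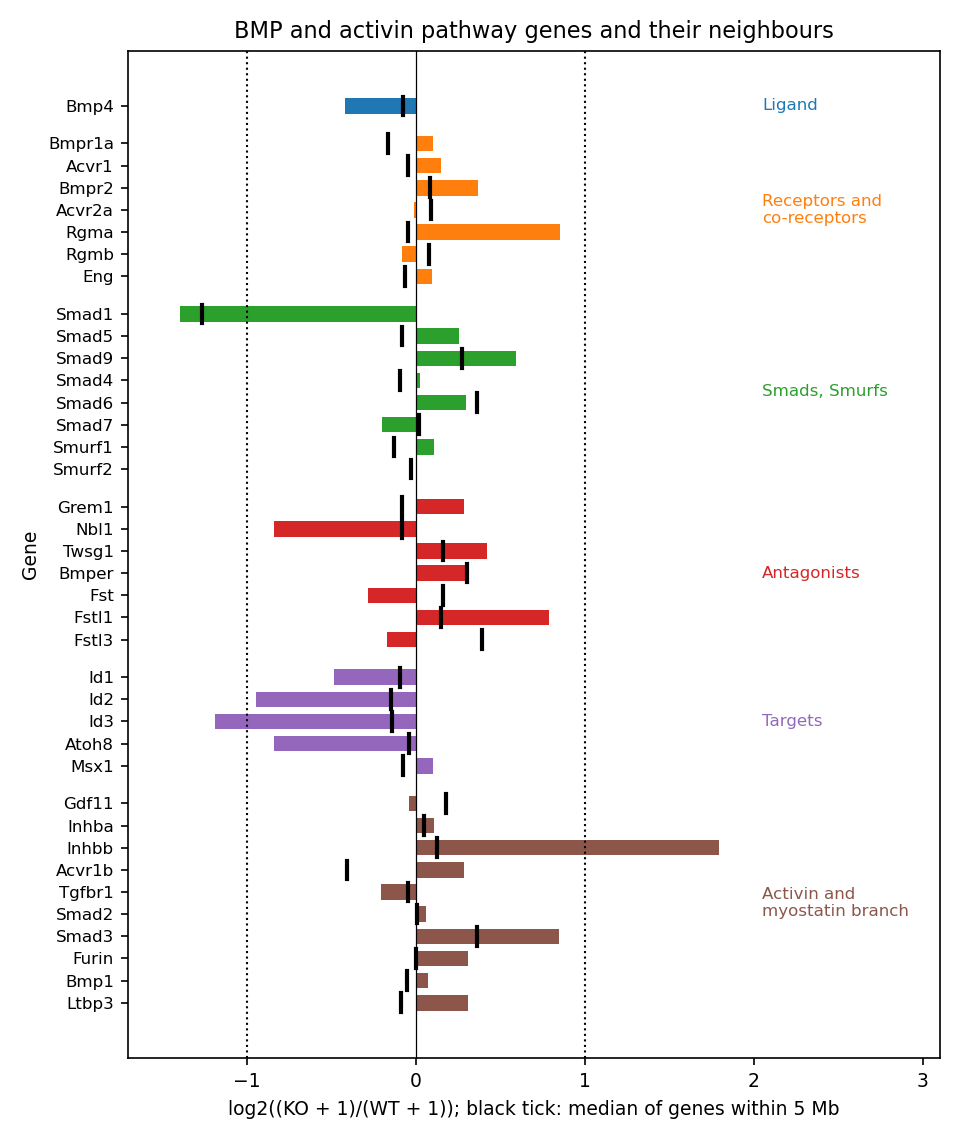
Bars show log2((KO + 1)/(WT + 1)) of 38 genes past the filter, grouped by role, with dotted lines at 2-fold. Black ticks give the median of the same quantity over genes within 5 Mb; the tick of Smad1, at -1.26, nearly meets the end of its bar, whereas those of Id1, Id2 and Id3 lie between -0.15 and -0.091.

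Id3 and Id2 were the members with the largest differences. Id3 fell from 226 FPKM in WT to 98.6 FPKM in KO, a log2 fold change of -1.19. Only 2.55% of genes past the filter were as low or lower. Id2 was at 92.9 FPKM in WT and 47.8 FPKM in KO, a log2 fold change of -0.94, which stops short of the 2-fold limit. Id1 was at 150.9 FPKM in WT and 108 FPKM in KO, a log2 fold change of -0.48. The 3 abundant Id genes thus all had lower values in KO, but by unequal amounts.

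Counting error is small for these genes. The estimated fragments of Id3 were 7845 in WT and 2909 in KO, which gives an interval of the log2 ratio from -1.26 to -1.14. The interval ran from -1.02 to -0.89 for Id2 and from -0.55 to -0.42 for Id1. These intervals do not overlap each other, and they say nothing of the spread between cultures or clones, which was not measured.

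Id4 stood apart from its paralogues, at 0.033 FPKM in WT and 0.025 FPKM in KO. These values correspond to about 4 and 2 fragments, and the counting interval of the log2 ratio, from -4.23 to 2.03, allows a difference in either direction. No change in Id4 was detectable at this depth.

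The order of the Id genes was not the same in both libraries. In WT the order was Id3, Id1, Id2 and Id4. In KO Id1 was the highest, with Id3 next at 0.92 times its level. The Poisson intervals of Id1 and Id3 in KO, from 103.8 to 112 FPKM and from 95.02 to 102 FPKM, did not overlap, although they lay close together. They cover counting error only. An order between genes also depends on the transcript lengths used, so that of Id1 and Id3 in KO is not settled by them. The share of Id3 in the summed Id level was 48.1% in WT and 38.8% in KO, and that of Id1 was 32.1% and 42.4%.

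Id1, Id2 and Id3 lie on different chromosomes, at chr2:152566218-152579544, chr12:25143798-25147282 and chr4:135870808-135873066 of GRCm39. The genes around them had medians of -0.091, -0.15 and -0.14 over 87, 17 and 103 genes. After these medians were subtracted, Id1 was at -0.39, Id2 at -0.80 and Id3 at -1.05. Most of each Id difference was thus left after the subtraction, in contrast to that of Smad1.

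**Figure D3:**
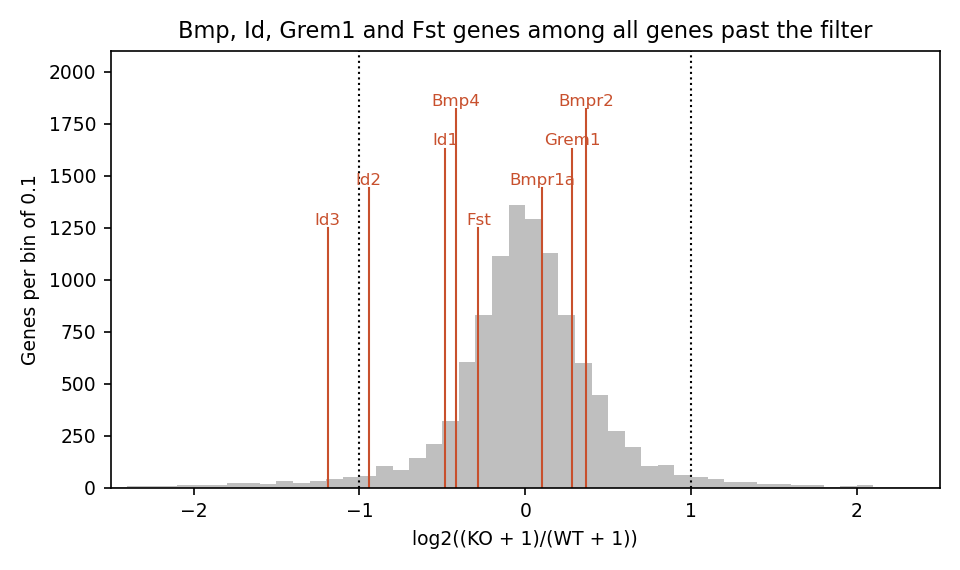
Histogram of log2((KO + 1)/(WT + 1)) over the 10542 genes past the filter in bins of 0.1, with the 8 members past the filter drawn as lines and dotted lines at 2-fold; genes beyond 2.5 in either direction lie outside the axis. Id3, at -1.19, lies past the lower limit and Id2, at -0.94, just inside it, while Bmpr1a lies near the center.

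The promoter sequences of Id2, Id3 and Id4 are shown because they set the paralogues with the largest differences beside the one with almost no RNA, and that of Mstn because the gene was listed at 0. They are the 250 bases before the RefSeq start site in GRCm38.p6, 5′ to 3′ on the strand of the gene. Of the 10 genes, 8 had an entry, and Id1 and Fst had none. Capitals mark GGCGCC, a GC-rich element that BMP Smads are known to bind, and GTCT or its complement AGAC, the core of the Smad-binding element.
Id2, chr12:25096093-25096342, minus strand: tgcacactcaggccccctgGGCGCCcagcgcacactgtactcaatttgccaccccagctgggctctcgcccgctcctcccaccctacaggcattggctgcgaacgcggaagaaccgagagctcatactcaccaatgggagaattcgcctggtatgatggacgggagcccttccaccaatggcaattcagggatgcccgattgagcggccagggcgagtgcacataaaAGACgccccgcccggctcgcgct
Id3, chr4:136143572-136143821, plus strand: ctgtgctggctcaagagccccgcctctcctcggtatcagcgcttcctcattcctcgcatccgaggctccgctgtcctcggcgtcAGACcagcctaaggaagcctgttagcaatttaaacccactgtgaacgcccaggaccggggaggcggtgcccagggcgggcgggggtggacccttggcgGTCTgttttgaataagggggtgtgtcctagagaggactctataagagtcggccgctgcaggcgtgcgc
Id4, chr13:48260866-48261115, plus strand: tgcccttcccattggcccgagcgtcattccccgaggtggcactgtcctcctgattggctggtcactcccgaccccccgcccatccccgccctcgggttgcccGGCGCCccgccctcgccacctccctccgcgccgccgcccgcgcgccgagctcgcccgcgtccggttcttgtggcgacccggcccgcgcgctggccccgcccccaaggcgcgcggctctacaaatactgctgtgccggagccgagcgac
Mstn, chr1:53061390-53061639, plus strand: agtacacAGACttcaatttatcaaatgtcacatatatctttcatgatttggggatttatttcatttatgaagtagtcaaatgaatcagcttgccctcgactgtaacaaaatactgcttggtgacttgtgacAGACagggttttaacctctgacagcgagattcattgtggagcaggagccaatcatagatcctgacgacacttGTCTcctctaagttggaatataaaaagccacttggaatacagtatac

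The Id2 window held 1 GGCGCC and 1 GTCT, the Id3 window 0 and 2, and the Id4 window 1 and 0, counted on both strands. Of 32851 promoter windows of this length, 9.59% held GGCGCC and 82.9% held GTCT, so a GTCT match is the usual case. The bipartite form, GGCGCC followed by GTCT after 5 further bases, was in 0.07% of all windows and in none of the 8 entries. The E-box CANNTG, the motif of Myod1 and its E protein partners, was in 66.2% of all windows. Mstn held 4 matches, Bmp4 held 3, Id2 held 1 and the other 5 entries held 0. The Mstn window had a GC content of 38.4%, against 62.8% for both Id2 and Id3 and a median of 52.4% over all windows. A match describes these letters in this window and is not a bound site.

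The other BMP targets on the list did not all behave like the Id genes. Atoh8, a BMP-responsive bHLH factor, was at 21.4 FPKM in WT and 11.5 FPKM in KO, a log2 fold change of -0.84 that lay inside the 2-fold limit. Msx1, a homeobox target, was near-equal at 7.36 FPKM and 7.96 FPKM. Hey1, below the filter, was at 1.43 FPKM in WT and 0.504 FPKM in KO, with a counting interval of the log2 ratio from -2.03 to -1.03. Over the 13 listed targets, 8 passed the filter, 1 fell and 0 rose more than 2-fold, and the median was -0.34. The 1 that fell was Id3, and the 3 Id genes are part of that list and of its median.

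Grem1 was the most abundant of the 10 genes. It encodes gremlin, a secreted protein that binds Bmp2 and Bmp4 and keeps them from their receptors. Its value was 268 FPKM in WT and 327 FPKM in KO, a log2 fold change of 0.29. Grem1 ranked 301 in WT and 250 in KO among all genes by level. The ratio of Grem1 to Bmp4 was 12.5 in WT and 20.7 in KO, as the antagonist was higher and the ligand lower. Grem1 lies at chr2:113576509-113589000 on the minus strand of GRCm39, and its neighbours had a median of -0.084.

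Fst was expressed at a low level. Its value was 1.90 FPKM in WT and 1.39 FPKM in KO, a log2 fold change of -0.28. The estimated 97 and 60 fragments give an interval of the log2 ratio from -0.95 to 0.018, so counting error alone spans no difference. Fst lies at chr13:114588731-114595521 on the minus strand. Related genes were far more abundant, with Fstl1 at 91.5 FPKM in WT and 158 FPKM in KO, and Fstl3, an inhibitor of activin and myostatin, at 10.9 FPKM and 9.51 FPKM.

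Of 17 BMP antagonist genes listed, 7 passed the filter, with 0 rising and 0 falling more than 2-fold and a median of 0.29. After neighbour medians were subtracted, the median of this list was 0.0056. Nbl1, a relative of gremlin, went the other way from Grem1, at 32.0 FPKM in WT and 17.5 FPKM in KO, a log2 fold change of -0.84. Twsg1 and Bmper, which modulate BMP binding to its antagonists, had log2 fold changes of 0.42 and 0.31. The classical antagonists noggin and chordin were scarce, and both were lower still in KO. Nog was at 0.45 FPKM in WT and 0.029 FPKM in KO, about 21 fragments against 1, with an interval of the log2 ratio from -9.53 to -1.52. Chrd was at 0.675 FPKM in WT and 0.059 FPKM in KO, about 83 and 6 fragments, with an interval from -5.04 to -2.38.

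Dand5, a further antagonist gene under the filter, was at 1.48 FPKM in WT and 0.23 FPKM in KO, and lies on chromosome 8. Its 65 neighbours had a median of -1.47. The log2 fold change of Dand5 was -1.02 with the pseudocount, which compresses a value this low, and its log2 ratio without it was -2.71, with a counting interval from -4.02 to -1.68. The neighbour median was computed with the pseudocount, so the size of Dand5 against its neighbours is left without a direction.

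Of the 38 pathway genes other than members that stayed under the filter, 5 had a counting interval wholly below a log2 ratio of -1, namely Bmpr1b, Nog, Chrd, Dand5 and Hey1. The interval was wholly above 1 for 2 of them, Bmp5 and Dcn. The share of all genes under the filter with such intervals was not counted. Whether 5 and 2 of 38 are many or few is thus not known. Dcn, whose product decorin binds myostatin and collagen, was at 0.27 FPKM in WT and 1.68 FPKM in KO.

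Mstn was listed at 0 in both libraries. A count of 0 allows a level of up to 0.041 FPKM in WT and 0.048 FPKM in KO, taking 3 fragments as the limit. The gene lies at chr1:53100799-53107240 on the plus strand of GRCm39. The related ligand Gdf11 was at 14.1 FPKM in WT and 13.7 FPKM in KO, so a ligand of the same receptors was present at like levels.

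In the myostatin and activin branch, the largest difference was in Inhbb. This gene of the activin B subunit rose from 1.44 FPKM in WT to 7.47 FPKM in KO, a log2 fold change of 1.79. Inhba, which encodes the activin A subunit, was at 11.3 FPKM and 12.3 FPKM. Smad3, a transducer of activin and myostatin, was at 5.34 FPKM in WT and 10.4 FPKM in KO, a log2 fold change of 0.85. Its neighbours had a median of 0.36, and Smad3 was at 0.49 once this was subtracted. Smad2 was near-equal at 26.2 FPKM and 27.3 FPKM. Of the 12 listed genes, 9 passed the filter, 1 rose and 0 fell more than 2-fold, and the median was 0.060.

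Receptors of the branch were low in the case of Acvr2b, the main myostatin receptor, at 0.68 FPKM in WT and 0.42 FPKM in KO, and higher for Acvr2a at 5.72 FPKM and 5.67 FPKM. Of the 10 genes for myostatin processing and antagonism, 5 passed the filter, 0 rose or fell more than 2-fold, and the median was 0.073. Furin, a protease that cleaves the myostatin precursor, was at 30.9 FPKM in WT and 38.4 FPKM in KO.

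The genes of the E proteins, the partners that Id proteins hold, did not follow the Id genes. Tcf3 was at 48.3 FPKM in WT and 59.2 FPKM in KO, Tcf4 at 20.8 FPKM and 25.6 FPKM, and Tcf12 at 26.6 FPKM in both. Their sum was 95.7 FPKM in WT and 111 FPKM in KO. After the medians of their neighbours were subtracted, Tcf3 was at -0.097, Tcf4 at 0.39 and Tcf12 at -0.14. The sums and ratios here are without that subtraction. The summed Id level was 470 FPKM in WT and 254 FPKM in KO. The Id sum was thus 4.91 times the E protein sum in WT and 2.28 times in KO. This is a ratio of RNA levels and not of proteins.

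**Figure D4:**
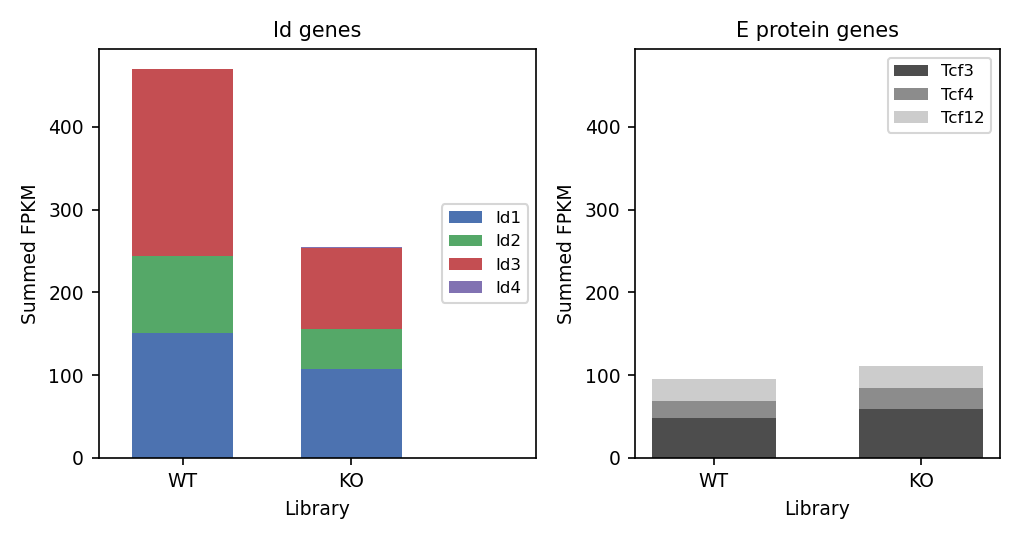
Stacked FPKM of the Id genes (left) and of the E protein genes Tcf3, Tcf4 and Tcf12 (right) in the WT and KO libraries, 1 library each, on the same vertical scale. The Id stack is 470 FPKM in WT and 254 FPKM in KO, with Id4 too low to be seen, and the E protein stack is 95.7 FPKM and 111 FPKM.

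Of the 10 genes listed as bHLH partners and competitors of the Id proteins, 6 passed the filter. Myod1 fell, being listed at 0 in KO, and Myf5 rose from 9.14 FPKM in WT to 20.3 FPKM in KO. Myog, which marks the onset of differentiation, was at 0.068 FPKM in WT and 0.027 FPKM in KO, about 3 fragments and 1. Twist2, a bHLH factor of mesenchymal cells, was at 61.9 FPKM and 62.3 FPKM. The median of the 6 genes was 0.15, and -0.12 after neighbour medians were subtracted.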

How the data were processed

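Messenger RNA of 1 WT and 1 KO C2C12 culture had been sequenced. The labels describe an Illumina kit and sequencer, whereas the supplementary methods describe an MGI kit and sequencer. Each deposited file pairs gene symbols with values that the authors had scaled by transcript length and depth, read here as FPKM although no unit stands beside them. That reading rests on column totals. Low values also step with transcript length, but TPM would step in the same way, so the steps do not tell the units apart. The submitters' processing notes name Trim Galore 0.6.6, STAR 2.7.9a and RSEM 1.3.3, with GRCm38, whereas the methods name GRCm39 and a different STAR version. The methods state that RSEM gave expected counts and TPM, so the values may instead be TPM for part of the genes. That would alter ratios without a pseudocount by a single factor per library, whereas fold changes with the pseudocount would shift unevenly. With both libraries rescaled to a sum of 1000000, Fst moved from -0.28 to -0.35 and Bmpr2 from 0.37 to 0.36. No count model was used. For the 24 of 21853 rows that repeated a symbol, the entry with more signal was retained. Fold changes were log2((KO + 1)/(WT + 1)), which compresses the differences of genes with low levels. Genes averaging 1 FPKM or more were counted, and a change beyond 1 on this scale is called more than 2-fold. Neighbours are genes past the filter within 5 Mb in GENCODE vM39 on GRCm39, which placed 10171 of 10542 genes.

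The FPKM of 1 fragment was taken as the most frequent product of value and transcript length among low genes, an estimate. Its ratio, KO to WT, was 1.17. Poisson limits and exact Clopper-Pearson limits are at 95%, with the length of the canonical GENCODE transcript. Intervals of ratios use no pseudocount. The limit for a value of 0 is 3 fragments. Promoter windows came from RefSeq. The members and lists were chosen with earlier results of these data known. Named genes were the 10 members and genes of the 14 further lists, first those changed more than 2-fold. The 2-fold call and the neighbour median were tested on simulated data. The depth estimate, the intervals and the motif search were not. The tools were scipy 1.17.1, pandas 2.3.3, numpy 2.4.6 and matplotlib 3.10.9 under Python 3.11.15.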

Additional observations from a re-analysis of the deposited data

How the results depend on the processing

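The 8 members past the filter were recomputed under 7 alternatives, namely pseudocounts of 0.1 and 5, no filter, a stricter filter at 5 FPKM, scaling by the median of ratios, rescaling to a sum of 1000000 and subtraction of the neighbour median. All 55 values kept their sign and their side of the 2-fold limit. Dropping or tightening the filter changes only which genes are counted. The values under these settings equal the main ones by construction and are no check on a fold change. Because the median of ratios gave a scaling factor of 1.0046, this setting could shift values only slightly. Id3 ranged from -1.21 to -1.05, Id2 from -0.97 to -0.80 and Fst from -0.45 to -0.11. The counts of all genes more than 2-fold higher and lower, 299 and 362, were 102 and 176 when the pseudocount was 5, whereas the stricter filter, which keeps fewer genes, gave 145 and 221. None of the 70 list medians left the 95% order-statistic interval of its list, which spans most members of a short list and says little of stability. With neighbour subtraction the median of the BMP antagonists was 0.0056 and that of the bHLH list was -0.12. Each line has 1 library, so none could be left out. No paired analysis was possible because no test was run and the lines share a single replicate number. DESeq2 and TMM scaling were not run, because the values were not counts. Depth limits Id4, Mstn, Fst and the genes under the filter, and the single library per line limits every comparison.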

Other observations

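Markers of lineages that BMP signaling is known to favor were also read. Of 6 osteoblast markers, 2 passed the filter, and Runx2, the osteoblast master regulator, was at 23.0 FPKM in WT and 17.7 FPKM in KO. Spp1, the gene of osteopontin, was at 1526 FPKM in WT and 2200 FPKM in KO, a log2 fold change of 0.53. Bglap, under the filter, was lower in KO, at 1.09 FPKM in WT and 0.23 FPKM in KO, about 13 fragments and 2. Alpl, an early osteoblast enzyme, and Ibsp were listed at 0 in both libraries. Sp7 was at 0.013 FPKM in WT and listed at 0 in KO. Of 5 adipocyte markers, 2 passed the filter. Cebpa rose from 5.44 FPKM in WT to 13.1 FPKM in KO, while Pparg was at 10.2 FPKM and 9.31 FPKM. Fabp4 was listed at 0 in WT and was at 0.32 FPKM in KO, about 10 fragments. Adipoq and Plin1 were listed at 0 in both.

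Of 6 fibroblast markers, 3 passed the filter. Col1a1 rose from 9.66 FPKM in WT to 273 FPKM in KO, Osr1 fell from 3.14 FPKM to 0.69 FPKM, and Pdgfra was at 10.8 FPKM and 12.3 FPKM. Dcn, under the filter, was higher in KO, at 0.27 FPKM in WT and 1.68 FPKM in KO. Thy1 and Lum were listed at 0 in both libraries. The endothelial list summed to 0.010 FPKM in WT and 0.011 FPKM in KO, with Cdh5 and Kdr listed at 0. The immune list summed to 2.90 FPKM and 1.14 FPKM, nearly all of it Cd68, and Ptprc was listed at 0 in both.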
